A study of Mus musculus with 45 samples.

Results

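Krt7, Krt8, Krt18, Krt19 and Vim encode 5 intermediate filament proteins, 4 keratins and vimentin. They were chosen by symbol, and all 5 were found among the 23575 genes of the deposited table. They were followed in 45 long-read RNA libraries made while mouse neural progenitor cells (NPCs) were turned into induced pluripotent stem cells. The progenitors came from O4G embryonic stem cells, which carry an Oct4-GFP reporter and derive from the R1 line, and were grown in N2B27 with EGF, FGF-2 and heparin (NPC medium). The 2 engineered lines are labelled OKMS-Luciferase-AS and OKS-Luciferase-AS, named for reprogramming factors with and without c-Myc, and wild-type (WT) cells carry neither. Every induced culture and its own day 0 progenitors therefore also carry Luciferase-AS, while the WT progenitors do not. The lines were stably transfected, and the labels do not say whether an induced line is 1 clone. Induction was in FBS-LIF with doxycycline (DMEM, foetal bovine serum and LIF). A later set was in 2i-LIF (N2B27 with LIF, CHIR-99021 and PD0325901), to which cells were moved at day 6 in the R9 set described next, with no day of the move given for the R10 set. Embryonic stem cells (ESCs: O4G, R1, R1-Clone3) were grown in 2i-LIF. The labels list doxycycline for FBS-LIF and not for 2i-LIF, so the medium and doxycycline cannot be told apart.

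Libraries were of 2 nanopore kinds that differ in RNA input and chemistry. The R9 set (22 libraries) was direct cDNA from poly(A)-selected RNA, and the R10 set (23 libraries) was PCR-amplified cDNA from total RNA. R9 held 4 NPC, 2 ESC and 1 WT day 2 library, OKMS and OKS at days 2, 4, 6, 10, 14 and 20, and 3 libraries in 2i-LIF. R10 held 4 NPC, 7 ESC and 2 WT day 2 libraries, OKMS at days 2, 4, 6, 10 and 18, OKS at days 2, 6 and 18, and 2 libraries in 2i-LIF at day 18. Nothing in the labels says that replicates were separate cultures, so p-values measure the spread between these libraries, which may be technical.

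Intermediate filaments are rope-like polymers that give cells mechanical strength. Keratins polymerise as pairs of a type II and a type I chain. Krt7 and Krt8 are type II, and Krt18 and Krt19 are type I. Krt8 with Krt18 is the pair of simple, single-layered epithelia and among the first filaments made in the embryo, Krt7 and Krt19 are found in ducts and other simple epithelia, and Vim, a type III protein that can polymerise by itself, is the filament of mesenchymal cells and of neural progenitors and astroglia. Loss of Vim and gain of keratins are commonly used as signs of a mesenchymal-to-epithelial transition, a step described early in reprogramming of fibroblasts.

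Of the 4 keratin genes 3 lie on mouse chromosome 15 (GENCODE M21 annotation, GRCm38, the mm10 build). Krt7 (ENSMUSG00000023039.17) spans bases 101411043 to 101430313 on the plus strand. Krt8 (ENSMUSG00000049382.10) spans 101996698 to 102004482 on the minus strand. Krt18 (ENSMUSG00000023043.7) spans 102028180 to 102032027 on the plus strand. Krt8 and Krt18 face away from each other with 23697 bases between them, while Krt7 and Krt8 are 566384 bases apart. Krt19 (ENSMUSG00000020911.14) is on chromosome 11 at 100140810 to 100148665, minus strand, and Vim (ENSMUSG00000026728.9) on chromosome 2 at 13573927 to 13582826, plus strand.

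The sequences just upstream of Krt8 and Krt18 are shown because these neighbours encode a filament pair and their levels went together in the results that follow. They come from RefSeq (GRCm38.p6), written 5′ to 3′ on the strand of each gene, and stop at the first base that any annotated or deposited exon covers. The Krt8 stretch is chr15:102004483-102004592, minus strand, 110 bases that end 140 bases before the RefSeq start. The Krt18 stretch is chr15:102027966-102028179, plus strand, 214 bases that end 36 bases before its start. Capitals mark matches to GGGNGTGG, a motif of KLF-type factors, on either strand; the Krt8 stretch has none.
Krt8 upstream: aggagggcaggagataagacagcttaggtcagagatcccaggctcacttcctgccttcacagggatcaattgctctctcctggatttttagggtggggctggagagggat
Krt18 upstream: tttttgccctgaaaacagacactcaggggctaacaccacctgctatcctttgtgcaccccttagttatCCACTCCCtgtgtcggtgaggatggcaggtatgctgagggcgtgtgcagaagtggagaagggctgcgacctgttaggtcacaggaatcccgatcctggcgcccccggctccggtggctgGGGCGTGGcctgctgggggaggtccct

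Motifs of the reprogramming factors and a few general ones were searched on both strands in the window from 250 bases before to 50 after the RefSeq start, for which 4 of the 5 genes had an entry and Krt19 had none. GGGNGTGG was in 2 of the 4 windows, Krt18 and Vim, and in 17.6% of all 32851 windows of the same length. The E-box CACGTG bound by Myc was in none of the 4 and in 7.15% of all windows. The octamer ATGCAAAT and the Sox motif CATTGTT were also in none of the 4, against 1.74% and 3.78% of all windows. The GC box GGGCGG was in the Krt7 window and in 35.7% of all, TATAAA in the Krt8 and Vim windows and in 13.6% of all, and TGANTCA in none of the 4 and in 7.81% of all. GGGNGTGG and GGGCGG can share only G bases at their ends. A match is a description of letters and says nothing of binding.

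Values are CPM, the share of a library's gene-assigned reads scaled to a fixed total, which were turned back into whole reads for every value. Libraries held 447990 to 1390424 reads in R9 and 566599 to 4236442 in R10. A gene with 0 reads could still be present at up to 3 reads, which is 2.16 to 6.70 CPM in R9 libraries and 0.708 to 5.29 CPM in R10 libraries. This covers counting error alone. The labelled cell types carried their markers. The summed level of 8 neural progenitor genes was 4184 to 6870 CPM in NPCs and 1.16 to 32.5 CPM in ESCs, with Sox1 at 0 in all 8 NPC libraries. The summed level of 7 pluripotency genes was 10.8 to 30.4 CPM in NPCs and 10402 to 13080 CPM in ESCs. The mitochondrial share of reads split the R10 set: 0.124 to 0.319% in the WT libraries and 1 R1 ESC library without a replicate number, 0.730 to 1.64% in OKMS and OKS NPCs and their days 2 to 10, and 1.56 to 2.35% at day 18 and in the 6 numbered ESC libraries. Its part in the results below was not tested. Because these were bulk samples, fewer cells of a type and less RNA per cell cannot be told apart.

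To place the start and the end of the process, progenitors were compared with stem cells. The progenitors had almost no RNA of these 4 keratins and much Vim, and the stem cells had low but readily counted Krt8, Krt18 and Krt7 and much less Vim. In R9 progenitors, Krt7 had no read in any of the 4 libraries, Krt8 and Krt18 had 1 read each, both in WT replicate 2 (0.968 CPM), and Krt19 had 1 read in the OKS line (1.69 CPM). In R10 progenitors, Krt8 was at 0.439, 0.584, 0.318 and 0 CPM in the OKMS, OKS, WT replicate 2 and WT replicate 3 libraries, and Krt18 at 0.879, 3.51, 0 and 0 CPM. No NPC library had more than 6 reads of any of these keratins. Vim, in contrast, was at 2647, 2039.6, 2520.2 and 2907 CPM in R9 (WT replicates 1 and 2, OKMS, OKS) and at 1432, 1627, 1914 and 1905 CPM in R10 (WT replicates 2 and 3, OKMS, OKS).

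In the 7 R10 stem cell libraries Krt8 ranged from 20.0 to 51.1 CPM with a median of 31.6, Krt18 from 4.48 to 17.7 with a median of 8.70, and Krt7 from 2.34 to 5.22 with a median of 4.27. Krt19, the smallest keratin of the family, ranged from 0 to 4.03 CPM with a median of 1.12. Vim ranged from 164 to 366 CPM with a median of 267. ESC and NPC libraries did not overlap for Krt7, Krt8, Krt18 or Vim, and did for Krt19. The share of all genes without such overlap was not counted. In R9 the O4G and R1 stem cells had Krt8 at 7.57 and 10.2 CPM, Krt18 at 6.63 and 6.52, Krt7 at 4.73 and 7.45, Krt19 at 0 and 1.86, and Vim at 249.96 and 232 CPM.

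All 5 genes passed the test in R10, where a gene was called when limma gave an adjusted p under 0.05 over all genes tested and a difference of at least 1 on the log2(CPM + 1) scale. That share stood beside 45.8% of 15415 genes called. A gene had to reach 1 CPM in 4 libraries to be tested, which the 4 keratins did only through the stem cells. Differences against groups at or near 0 reads depend on the added 1 and understate low genes, so they are no bound. Krt8 was higher in ESCs by 4.64 log2 units (SE 0.24, limma adjusted p = 1.44e-10; 32.8 ± 9.51 CPM, SD, n = 7, against 0.335 ± 0.249, n = 4). Krt18 was higher by 2.53 (SE 0.43, limma adjusted p = 8.68e-05) and Krt7 by 2.11 (SE 0.24, limma adjusted p = 1.26e-06). Krt19 passed narrowly, at 1.02 (SE 0.35, limma adjusted p = 0.0167), and it was called in 4 of 11 leave-outs. Its log2 difference was 0.96, under the size for a call, without the R10 NPC library of OKMS, of OKS or of WT replicate 3. Without the unnumbered R1, O4G replicate 2, R1-Clone3 replicate 1 or R1 replicate 2 stem cell library, Krt19 no longer passed the filter on low values and was not tested. With quantile scaling its difference was 0.72 (limma adjusted p = 0.100), and against WT progenitors alone it was 0.84 (limma adjusted p = 0.152). Vim was lower in ESCs by 2.75 log2 units, with 263 ± 75.0 CPM (SD, n = 7) against 1719.5 ± 233 (n = 4) (limma adjusted p = 5.66e-09).

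In R9, 4 of the 5 were called, beside 36.02% of 15746 genes. Krt7, Krt8 and Krt18 again passed the filter on low values only through the stem cells. Krt8 (3.05, SE 0.39), Krt7 (2.80, SE 0.26) and Krt18 (2.68, SE 0.37) were higher in ESCs and Vim was lower (−3.38, SE 0.15), with limma adjusted p of 0.00119, 3.40e-04, 0.00168 and 4.06e-05. Krt19 differed by 0.40 (SE 0.60, limma adjusted p = 0.617). Whether R9 and R10 gave unequal differences was tested as an interaction, which called none of the 5 by limma, 0 by edgeR and 0 by DESeq2, beside 3.63% of 18341 genes. Krt8 and Vim had an unadjusted p under 0.05, as did 3813 of the 18341 genes. The Krt8 interaction of 1.59 log2 (SE 0.47) had a limma adjusted p of 0.0577, and it passed after leaving out the R10 R1 library without a replicate number (limma adjusted p = 0.0352).

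Other filament genes also set the 2 cell types apart in R10, where 45.8% of all genes were called. Of 4 other keratins tested 3 were higher in stem cells and 1 lower, of 11 other intermediate filament genes 5 were higher and 2 lower, and of 12 linkers and desmosome genes 7 were higher and 2 lower, with medians of 1.20, 0.45 and 2.32 log2 against 0.0059 over all genes. Krt42 stood at 15.0 against 0.0794 CPM (limma adjusted p = 3.81e-08), while Krt10, a keratin of differentiated epidermis, was the lower one (12.3 against 33.5 CPM). The 8 other keratins in the table summed to 30.2 to 41.6 CPM in progenitors of both kinds, 21.0 to 42.3 CPM in R10 stem cells and 57.8 and 102 CPM in R9 stem cells. Nes, the neural stem cell filament, was lower like Vim (7.27 against 319.5 CPM), and the neurofilament genes Nefl (69.6 against 1.13 CPM) and Nefh (20.5 against 0.225 CPM) and the muscle filament gene Des (19.2 against 0.415 CPM) were higher. The desmosomal cadherin gene Dsg2 was at 27.8 CPM against 0 and Perp at 19.8 against 1.85 CPM. Of 10 simple epithelium genes tested 9 were higher in stem cells and none lower.

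**Figure D1:**
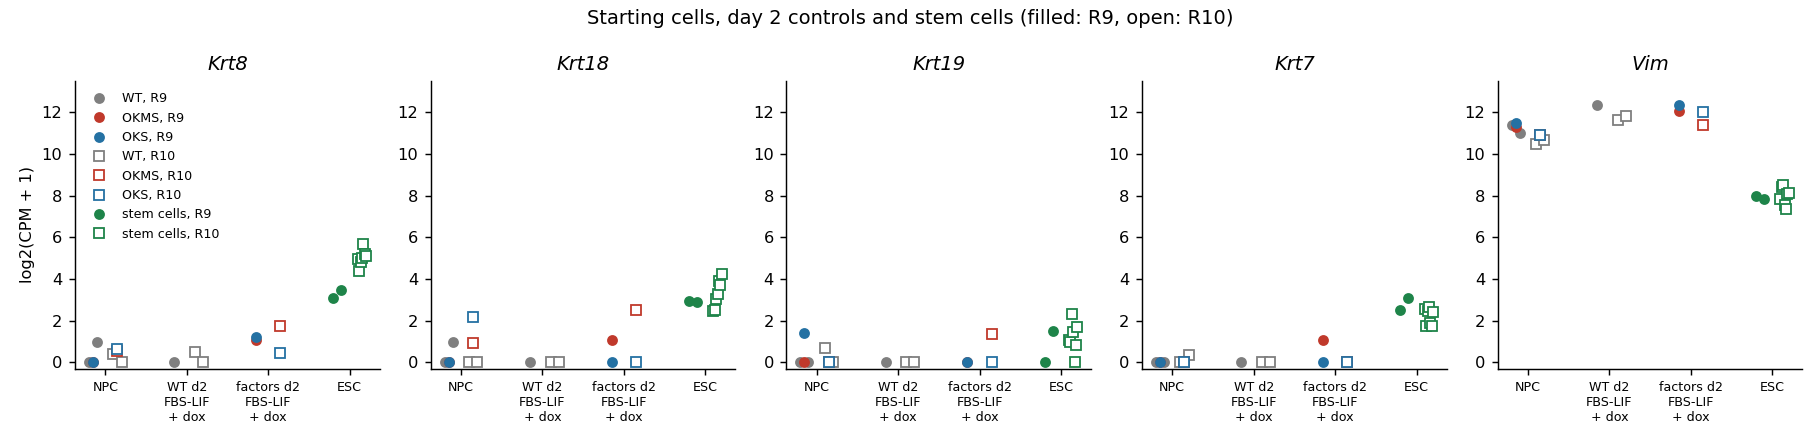
The 5 genes in progenitors, WT cells after 2 days in FBS-LIF with doxycycline, OKMS and OKS cells at day 2, and stem cells, as log2(CPM + 1) with 1 point per library (filled R9, open R10). Outside the stem cells the keratins are at or under 4.74 CPM and Vim is at 1432 CPM or more; in stem cells Krt8 reaches 51.1 CPM and Vim is at or under 366 CPM.

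The medium change was separated from the factors with WT progenitors put for 2 days into FBS-LIF with doxycycline. The 4 keratins stayed at or near 0. The R9 WT day 2 library had no read of any of the 4, R10 replicate 3 had none, and R10 replicate 2 had 1 Krt8 read (0.391 CPM). Vim was at 5237 CPM in R9 and at 3143 and 3579.6 CPM in R10, above every progenitor library of the same kind. In R10 Vim was 3361 ± 309 CPM (SD, n = 2) against 1529.6 ± 138 (n = 2) in WT progenitors, a rise of 1.14 log2 units (SE 0.29, limma adjusted p = 0.0369). The comparison called 26.8% of 14688 genes, and its median over all genes was 0.12 log2. With values centred on the median, Vim differed by 0.98 (limma adjusted p = 0.247). Without any 1 of the 4 libraries the difference was 1.04 to 1.23 log2 and the call was lost (limma adjusted p between 0.103 and 0.359). Each such fit leaves 1 library in a group, which is assumed to vary like the other group. The 4 keratins were too low in these libraries to be tested.

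Other filament genes of the same family differed in the R10 WT libraries. Of 10 intermediate filament genes tested beside the members, 5 were called higher and 3 lower, with a median of 1.59 log2. These calls rest on few libraries: 3 higher and 1 lower were called without WT day 2 replicate 3, and none without any of the other 3 libraries. Gfap, the astrocyte filament that co-polymerises with Vim, was at 3015 and 1056 CPM in R10 replicates 2 and 3 against 5.72 and 5.16 CPM in WT progenitors (limma adjusted p = 0.00127). In R9 it was at 236 CPM in the 1 WT day 2 library against 1.34 and 0.968 CPM. Prph, a neuronal type III filament, was at 77.5 and 12.5 CPM against 0 in both R10 progenitor libraries (limma adjusted p = 0.0112), and it had no read in the R9 WT libraries of either medium. The summed level of all 14 other filament genes was 3362 and 1287 CPM in the R10 WT day 2 libraries against 498 to 611 CPM in R10 progenitors, and 463 CPM against 429 to 523 CPM in R9. Gfap alone made up 3015 and 1056 CPM of the R10 day 2 sums and 236 CPM of the R9 one. Without Gfap, the list summed to less than in WT progenitors of the same kind. Synm, which joins Vim filaments, averaged 13.4 CPM in R10 against 0.748 in progenitors, and the lamin gene Lmnb1 6.10 against 98.4 CPM. Among 8 linkers and desmosome genes, 2 were called higher and none lower (median 1.38), beside 26.8% of all genes called. They were Plec, which ties filaments to junctions, at 62.8 against 1.48 CPM, and Pkp2, a desmosomal plaque protein, at 3.64 against 0 CPM. Plec lost its call without any 1 of the 4 libraries (limma adjusted p = 0.0615 without WT day 2 replicate 3), and Pkp2 kept it only without that replicate. In R9 neither was called (Plec 1.41 log2, limma adjusted p = 0.589; Pkp2 0.66, limma adjusted p = 0.650). The summed level of 7 astrocyte markers was 2457 to 6243 CPM in WT day 2 libraries and 1131 to 1808 CPM in progenitors, and that of 8 fibroblast markers was 43.5 to 262 CPM against 7.94 to 223 CPM. Primitive endoderm genes (5 in the table) summed to 83.0, 169.5 and 183 CPM in WT day 2 libraries and 9.21 to 37.1 CPM in progenitors, with no overlap, and 1 of 2 tested was called higher. Of 7 neural progenitor genes tested 2 were called lower. The part of these lists in the Vim rise was not tested.

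At day 2 the factors, with the medium held the same, gave no Vim difference that passed the test. Vim was at 2685 CPM in OKMS and 4081 CPM in OKS, on either side of the 2 WT libraries, and the mean of 3383 ± 987 CPM (SD, n = 2) differed from WT by −0.02 log2 (SE 0.64, limma adjusted p = 0.993). Of the 5 genes, Vim alone was high enough to be tested. It was not called by limma, edgeR or DESeq2 and its unadjusted p was above 0.05, beside 0.740% of 15402 genes called. OKMS at day 2 had 3 Krt8, 6 Krt18 and 2 Krt19 reads in R10 (2.37, 4.74 and 1.58 CPM) and 1 read each of Krt7, Krt8 and Krt18 in R9 (1.13 CPM). OKS at day 2 had 1 Krt8 read in each set (1.34 CPM in R9, 0.373 CPM in R10). Of the linkers tested, Perp, a membrane protein of desmosomes, was called, at 23.9 against 0.360 CPM (limma adjusted p = 0.0255), and of the other filaments Nefl, the light neurofilament chain, at 19.0 against 0.165 CPM (limma adjusted p = 0.0255). Before induction the OKMS and OKS progenitors did not differ in Vim from WT beyond the test (2312 ± 490.5 CPM, SD, n = 4, against 1936 ± 537, n = 4; 0.27 log2, SE 0.13, limma adjusted p = 0.608). That comparison called 0% of 13647 genes by limma, with 1148 at an unadjusted p under 0.05, and edgeR called 2 and DESeq2 9, none of them a member.

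**Figure D2:**
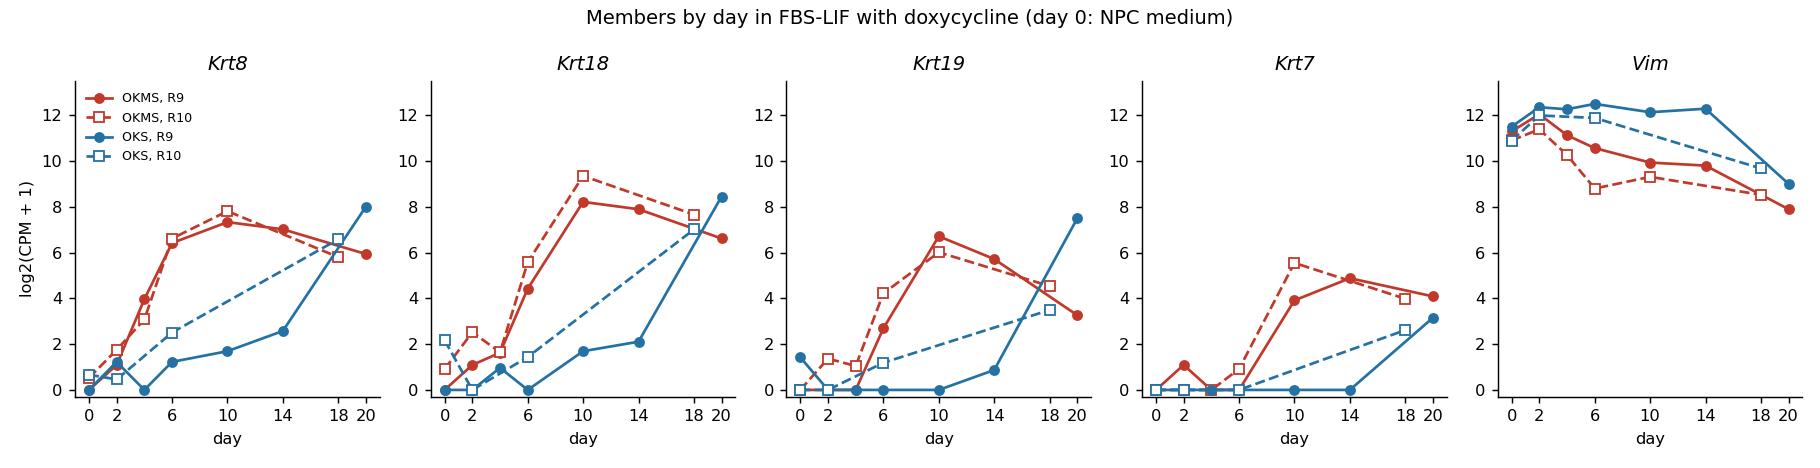
The 5 genes by day, as log2(CPM + 1), for OKMS (red) and OKS (blue) in FBS-LIF with doxycycline, with R9 as solid lines and filled points and R10 as dashed lines and open points; day 0 is NPC medium, and every point is 1 library. In OKMS Krt8 is at 84.6 (R9) and 97.2 CPM (R10) by day 6, while in R9 OKS it is at or under 4.96 CPM to day 14 and at 257 CPM at day 20; Vim goes from 4231 to 238 CPM between days 2 and 20 in R9 OKMS and is at or above 4502 CPM in R9 OKS from day 2 to day 14.

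The time courses showed when each filament gene appeared, and it was much earlier in OKMS than in OKS. In R9 OKMS, Krt8 was at 1.13, 14.6, 84.6, 160.3, 129 and 60.3 CPM at days 2, 4, 6, 10, 14 and 20. The matching Krt18 values were 1.13, 2.09, 20.5, 297, 237 and 97.3 CPM. Krt8 was thus above Krt18 in reads at days 4 and 6, and Krt18 above Krt8 from day 10. Krt19, the type I chain of ducts, was at 0, 0, 5.46, 104, 51.7 and 8.62 CPM on these days, and Krt7 at 1.13, 0, 0, 14.1, 28.5 and 16.01 CPM. Krt19 was highest at day 10 and Krt7, the last of the 4 to be counted in more than 1 read, at day 14. Each of the 4 keratins was lower at day 20 than at its peak.

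R10 OKMS libraries likewise had Krt8 above Krt18 in reads at days 4 and 6 and below it from day 10. Krt8 was at 2.37, 7.45, 97.2, 224 and 54.9 CPM at days 2, 4, 6, 10 and 18, Krt18 at 4.74, 2.13, 46.8, 653 and 202 CPM, and Krt19 at 1.58, 1.06, 17.7, 63.6 and 22.3 CPM. Krt7 was at 0, 0, 0.883, 45.8 and 14.8 CPM. The 653 CPM of Krt18 (770 reads) at day 10 was the highest level of these 4 keratins in the 45 libraries, and all 4 keratins were highest at day 10 among these 5 days.

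In R9 OKS the 4 keratins were at or under 4.96 CPM (6 reads) to day 14. Krt8 was at 1.34, 0, 1.34, 2.23, 4.96 and 257 CPM at days 2, 4, 6, 10, 14 and 20, and Krt18 at 0, 0.954, 0, 2.23, 3.31 and 349 CPM. Krt19 had 1 read in all of days 2 to 14 and then 179.6 CPM (250 reads) at day 20, and Krt7 went from 0 reads up to day 14 to 7.90 CPM (11 reads). In R10 OKS, Krt8 was at 0.373, 4.69 and 94.8 CPM at days 2, 6 and 18, and Krt18 at 0, 1.71 and 128 CPM. Krt19 was at 0, 1.28 and 10.2 CPM and Krt7 at 0, 0 and 5.12 CPM. Days 6 and 18 have no R10 OKS library between them, so the change there can be placed no more closely in time.

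Where the line's own progenitor library had no read, the fold was a lower bound set by 3 reads in that library. It takes the day 20 reads as exact. At day 20 in R9, Krt8 was at least 14.9-fold and Krt18 at least 24.1-fold higher in OKMS than before induction. The OKS values were at least 50.8-fold for Krt8 and at least 69.0-fold for Krt18. Against the same limit Krt7 was 3.96-fold higher in OKMS (13 reads) and 1.56-fold in OKS (11 reads), and Krt19 2.13-fold in OKMS (7 reads). With so few reads at day 20, these last folds are no lower bounds.

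Vim was above its own progenitor level at day 2 in all 4 series and below it in the last library of each, with a different timing in the 2 lines. In R9 OKMS it went from 2520.2 CPM before induction to 4231 at day 2, then to 2243, 1517, 979, 893 and 238 CPM at days 4, 6, 10, 14 and 20. R10 OKMS went from 1914 to 2685 CPM at day 2 and then to 1231, 445, 635 and 368 CPM at days 4, 6, 10 and 18. R9 OKS went from 2907 CPM to 5237, 4924, 5795, 4502 and 5009 at days 2 to 14 and then to 513 CPM at day 20. R10 OKS went from 1905 to 4081 and 3789 CPM at days 2 and 6 and to 819.5 CPM at day 18. So Vim was below its own progenitor level from day 4 in OKMS of both kinds, and in OKS only in the day 18 and day 20 libraries.

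With OKMS and OKS as the replicates of each R9 day, the test over all 6 days called 1 of the 5 genes, Vim (limma adjusted p = 0.0109), beside 10.7% of 19357 genes. The adjusted p of this limma test was 0.0527 for Krt18, 0.0875 for Krt8, 0.160 for Krt7 and 0.304 for Krt19. The 2 lines differed in timing, and the spread used by this test is the spread between them. The Vim call was lost without the OKS day 20 library (limma adjusted p = 0.113) and without the OKMS day 20 library (limma adjusted p = 0.0749). A call depended on the tool too: edgeR on the recovered reads called all 5 and DESeq2 called Krt8, Krt18 and Vim.

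Each day was also set against day 0, which these contrasts share. No member was called by limma at day 2 (4.16% of genes called), day 4 (4.15%), day 6 (4.41%), day 10 (6.15%) or day 14 (5.26%). At an unadjusted p under 0.05, none of the 5 passed at days 2 and 4, Krt8 passed at day 6, and Krt8 and Krt18 passed at days 10 and 14. The share of all genes at that level was not counted for single days. At day 20, 3 of 5 were called, beside 16.6% of genes. A gene had to reach 1 CPM in 2 libraries of the time course to be tested. By the day 0 libraries alone, none of the 4 keratins would have passed this filter. Krt18 was higher by 7.54 log2 (SE 1.69, limma adjusted p = 0.0108), Krt8 by 6.98 (SE 1.62, limma adjusted p = 0.0131), and Vim was lower by 2.95 (SE 0.53, limma adjusted p = 0.00366). Krt7 reached 3.62 (limma adjusted p = 0.0512) and Krt19 4.67 (limma adjusted p = 0.133). Without the R9 OKMS progenitor library no member was called at day 20 (limma adjusted p = 0.116 for Krt18, 0.134 for Krt8 and 0.0523 for Vim), and without the OKS day 20 library Vim alone was (limma adjusted p = 0.131 for Krt18 and 0.158 for Krt8).

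Late days (14 and 20) against early days (2 and 4) called 4 of 5 genes, beside 14.7% of genes. By the libraries of days 0, 2 and 4 alone, Krt7 and Krt19 would not have passed the filter on low values. Krt18 was higher by 5.35 log2 (SE 1.2), Krt8 by 4.32 (SE 1.1) and Krt7 by 2.76 (SE 0.82), and Vim was lower by 2.20 (SE 0.38), with limma adjusted p of 0.0123, 0.0251, 0.0387 and 0.0041. Krt19 differed by 4.34 (SE 1.4, limma adjusted p = 0.0532). Vim kept its call without each library in turn. Without OKMS day 14, OKS day 20 or OKMS day 2, Krt18 had limma adjusted p of 0.0798, 0.0577 and 0.0598 and Krt8 of 0.129, 0.114 and 0.114. Without OKS day 4, Krt8 had limma adjusted p = 0.101. Krt7 lost its call in 7 of the 14 leave-outs, with limma adjusted p up to 0.163.

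Other filament genes moved over the same days, beside 16.6% of all genes called at day 20. At day 20 in R9, 2 of 6 other keratins tested rose and none fell: Krt42, a type I keratin, by 5.06 log2 and Krt17, a keratin of basal and injured epithelium, by 4.66. Of 14 other intermediate filament genes 4 rose and 1 fell. Nefl rose by 5.76, Des, the muscle filament, by 4.77 and Nefh by 4.04, and Nes, the filament of neural stem cells that co-polymerises with Vim, fell by 3.79. Of 14 linker and desmosome genes 8 rose and 1 fell, with Perp at 6.33, Pkp2 at 5.03, Dsg2 at 4.66 and Dsp, the protein that ties keratins to desmosomes, at 4.51. The median difference was 2.00 for the other keratins, 1.33 for the other filaments and 2.05 for the linkers, where the median over all genes tested was 0.

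To compare the 2 lines, OKMS and OKS were paired by day over the 6 induced R9 days. Each factor set was 1 line with 1 library per day, so factor set and line cannot be told apart. The p-values measure how steady a difference was over days, and not the spread between lines of 1 factor set. All 3 of the members that were high enough to test were called, beside 17.98% of 14277 genes, and the median over all genes was −0.11 log2. By OKS alone, Krt8 and Krt18 would not have passed the filter on low values. Vim was lower in OKMS on 6 of 6 days, by 1.53 log2 (SE 0.27, limma adjusted p = 0.00196; 1683 CPM on average against 4330). Krt18 was higher in OKMS on 5 of 6 days, by 2.78 (SE 0.88, limma adjusted p = 0.0319), and Krt8 on 4 of 6 days, by 2.84 (SE 0.84, limma adjusted p = 0.0237). At day 20 both were higher in OKS, with Krt8 at 257 against 60.3 CPM and Krt18 at 349 against 97.3 CPM. Of the 5 days counted for Krt18, day 2 rests on 1 read in OKMS against 0 in OKS. Day 4 rests on 1 read in each line, in libraries of 478805 (OKMS) and 1048040 reads (OKS). The Krt18 and Krt8 calls were lost without day 6, 10 or 14 (limma adjusted p = 0.104, 0.109 and 0.106 for Krt18; 0.0925, 0.0801 and 0.0693 for Krt8), and Krt8 also without day 4 (limma adjusted p = 0.0766). In the 3 R10 days shared by both lines none was called by limma, with differences of 2.44 for Krt18, 1.54 for Krt8 and −1.61 for Vim and limma adjusted p of 0.235, 0.401 and 0.243.

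Among the related genes, Perp was at 149 CPM on average in OKMS against 47.6 in OKS (limma adjusted p = 0.00268) and Dsp at 17.6 against 6.34 (limma adjusted p = 0.00857). These were the 2 of 12 linkers that were called, beside 17.98% of all genes. Of 12 other filament genes 5 were higher in OKMS and 2 lower, among them Nefl (2.70) and Prph (2.27) higher and Gfap (−2.37) lower. None of 3 other keratins was called by limma. The medians were 0.46 for the other filaments and −0.41 for the linkers. Of the marker lists, 4 of 5 neural progenitor genes tested, 4 of 7 astrocyte genes and 3 of 5 fibroblast genes were lower in OKMS, and 1 astrocyte gene was higher (list medians −1.597, −1.05 and −1.55). Over the 6 days the neural progenitor sum was 9.85 to 2666 CPM in OKMS and 15.8 to 4975 CPM in OKS, the astrocyte sum 116 to 1487 and 246 to 2915 CPM, and the fibroblast sum 17.2 to 107 and 81.7 to 156 CPM. In OKMS 4 of 7 pluripotency genes and 4 of 8 simple epithelium genes were higher and none lower. The part of these lists in the filament differences was not tested.

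Other lists moved on the same days as the keratins. The summed level of 11 simple epithelium genes (Cdh1, Epcam, claudins and their regulators) in R9 OKMS was 21.5, 52.2, 374, 1144, 613 and 425 CPM at days 2, 4, 6, 10, 14 and 20. In R9 OKS it was 4.01, 4.77, 5.36, 4.46, 48.0 and 1038 CPM. In progenitors it was 1.34 to 14.0 CPM and in stem cells 198 to 400 CPM. Both the keratins and this list were thus higher in OKMS at day 10 and in OKS at day 20 than in the stem cells. Of these 11 genes 6 were called higher and none lower in the late against early days. The 7 pluripotency genes summed to 1059, 5515, 9159 and 8919 CPM in R9 OKMS at days 6, 10, 14 and 20, and to 87.0, 591 and 7611 CPM in R9 OKS at days 10, 14 and 20. In R9 OKMS they were higher at day 20 than at day 10, where Krt8, Krt18 and Krt19 were lower. Lists of the starting cells were lower at day 20, as Vim was, but part of them fell earlier. At each of days 4, 6, 10 and 14 against day 0, 4 of 8 neural progenitor genes were called lower and none higher. That stood beside 4.15 to 6.15% of all genes called, and Vim was not called on those days. In R9 OKS the astrocyte sum was 2915 CPM at day 2 and 436 CPM at day 14, while Vim was at 5237 and 5009 CPM. At day 20 against day 0 in R9, 6 of 8 neural progenitor genes (median −4.90) and 3 of 7 astrocyte genes (median −1.68) were called lower and none higher. Of 8 fibroblast genes 2 were higher and 1 lower. The part of these lists in the Vim fall was not tested.

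Markers of other keratin-bearing cells were also summed. Trophectoderm genes (5 of 8 in the table) reached 77.8 CPM in R9 and 140 CPM in R10 OKMS at day 6 and 168 CPM in R10 at day 10, against 39.4 to 81.0 CPM in stem cells and 1.35 to 6.69 CPM in progenitors. Keratinocyte genes (4 of 6 in the table) summed to 549 CPM in R9 OKS at day 20, of which 545 CPM was Sfn. There 3 of the 4 had reads, and Trp63, the defining regulator of that lineage, had none. Mesothelium genes (4 of 6 in the table) were at or under 25.6 CPM in sum. Of these 4, 1 was called higher and none lower in R9 at day 20 against day 0, and likewise in late against early days. Of 5 trophectoderm genes, 3 were called higher at day 20 (median 2.49) and 1 in late against early days (median 0.46). Of 4 keratinocyte genes, 1 was called higher in each comparison, and no gene of these 2 lists was called lower. Of all genes, 16.6% were called at day 20 and 14.7% in late against early days. The part of such cells in the keratin values was not tested.

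**Figure D3:**
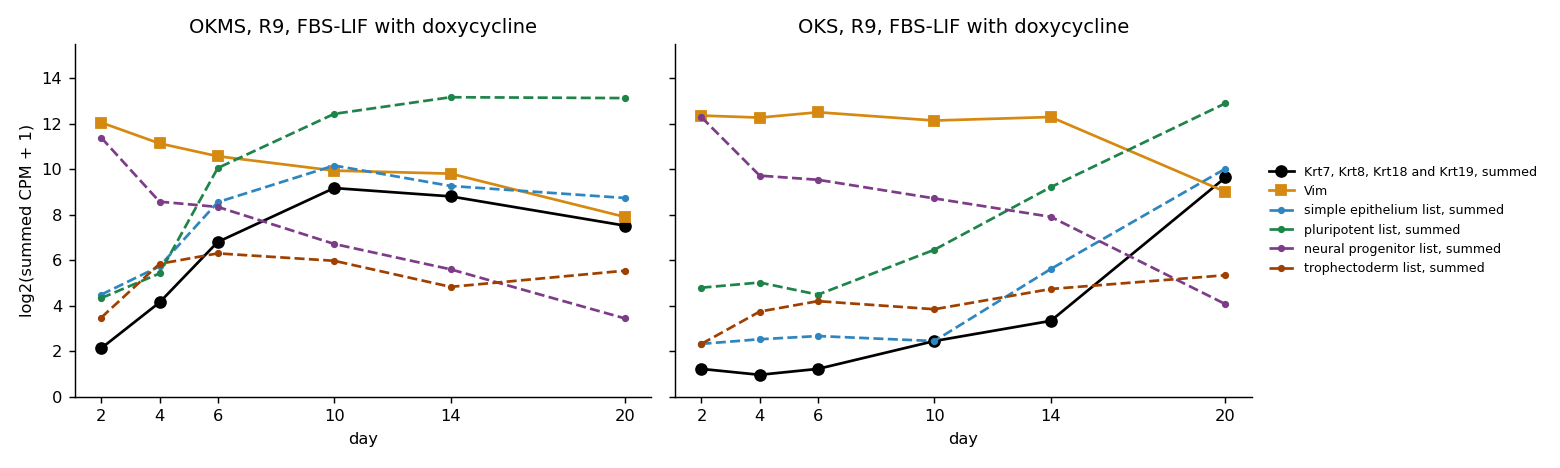
Summed CPM of the 4 keratins, Vim and the marker lists by day in R9 OKMS and R9 OKS, as log2(CPM + 1), with 1 library per point. In OKS the simple epithelium sum goes from 48.0 CPM at day 14 to 1038 CPM at day 20, and in OKMS it is highest at day 10, at 1144 CPM.

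Serum and 2i were compared in 5 pairs of libraries of the same line, day and kind. All pairs came from the OKMS and OKS lines, and R9 OKMS entered at both day 14 and day 20. The p-values of this comparison measure how steady a difference was over these pairs, and not the spread between lines. Each of the 5 genes was lower in 2i-LIF in 5 of 5 pairs. Krt8 was at 129, 60.3, 257, 54.9 and 94.8 CPM in FBS-LIF with doxycycline (R9 OKMS days 14 and 20, R9 OKS day 20, R10 OKMS and OKS day 18) and at 15.9, 4.30, 6.98, 15.9 and 12.5 CPM in 2i-LIF. Krt18 was at 237, 97.3, 349, 202 and 128 CPM against 7.33, 5.37, 4.66, 12.3 and 17.2 CPM. Vim was at 893, 238, 513, 368 and 819.5 CPM against 169, 132, 171, 118 and 174 CPM. The 2 media did not overlap for these 3 genes. How many of all genes were lower in 5 of 5 pairs, or had no overlap, was not counted.

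Krt19 was at 51.7, 8.62, 179.6, 22.3 and 10.2 CPM in FBS-LIF with doxycycline and at 1.22, 0, 0, 1.76 and 1.56 CPM in 2i-LIF, again with no overlap, and no 2i-LIF library had more than 1 read. Krt7 was at 28.5, 16.01, 7.90, 14.8 and 5.12 CPM against 0, 3.22, 5.82, 1.76 and 1.56 CPM. For Krt7 the media overlapped, since the 2i-LIF library of R9 OKS day 20 lay above the FBS-LIF library of R10 OKS day 18. The smallest fold within a pair was 7.44 for Krt18, 3.46 for Krt8, 1.80 for Vim and 1.36 for Krt7.

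All 5 genes were called lower in 2i-LIF, beside 6.32% of 14935 genes called lower. By the 2i-LIF libraries alone, Krt7 and Krt19 would not have passed the filter on low values. Krt18 was lower by 4.30 log2 (SE 0.33, limma adjusted p = 2.08e-07; 9.38 ± 5.31 CPM, SD, n = 5, against 203 ± 99.2, n = 5). Krt19 was lower by 4.11 (SE 0.61), Krt8 by 3.21 (SE 0.35), Krt7 by 2.21 (SE 0.56) and Vim by 1.74 (SE 0.20), with limma adjusted p of 1.89e-04, 7.64e-06, 0.0125 and 1.22e-05. The Krt7 call was lost without the R9 OKMS day 14 pair (limma adjusted p = 0.0896). Within the 2 R10 pairs Krt18 and Vim were called, and Krt8 (−2.28), Krt19 (−2.60) and Krt7 (−1.89) had limma adjusted p of 0.051, 0.173 and 0.326. An unequal medium difference in OKMS and OKS was tested as an interaction, which called none of the 5 by limma, edgeR or DESeq2, beside 0.00540% of 18525 genes. Krt7 had an unadjusted p under 0.05 there, as did 1014 of the 18525 genes, with −2.32 log2 for Krt7 (SE 1.1, limma adjusted p = 0.902).

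**Figure D4:**
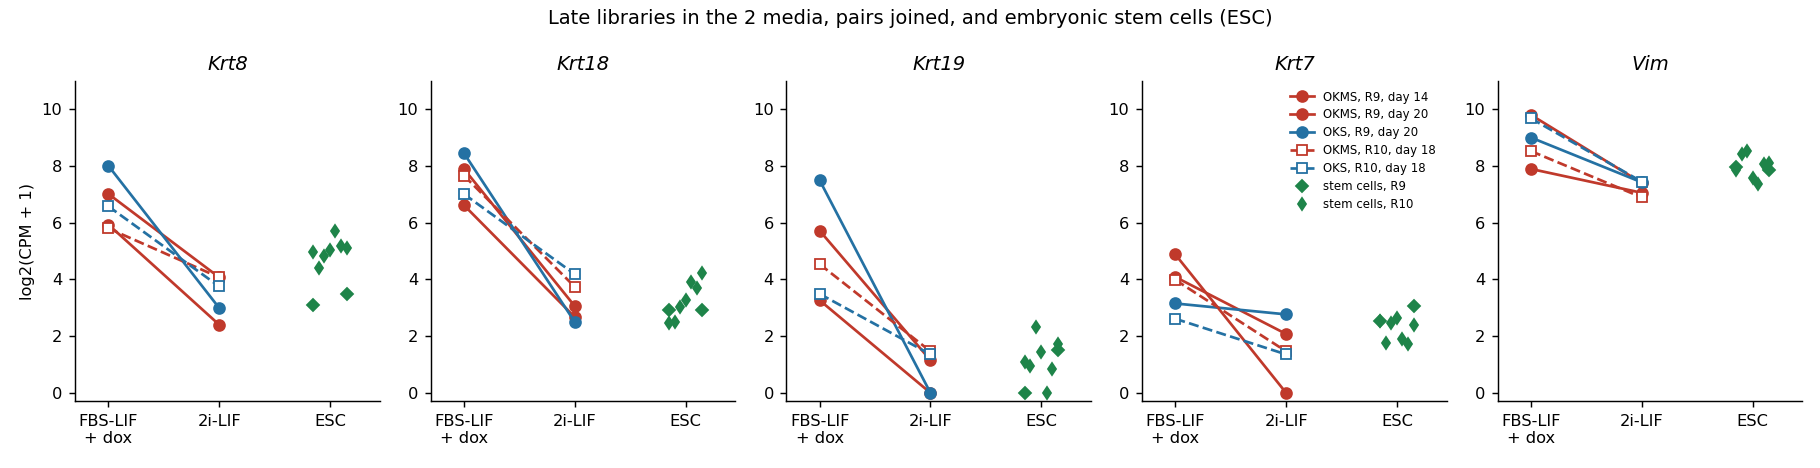
The 5 genes in FBS-LIF with doxycycline and in 2i-LIF, as log2(CPM + 1), with the libraries of each of the 5 pairs joined by a line and stem cells as green diamonds. All lines slope down; for Krt18 the lowest serum library (97.3 CPM) is above the highest 2i-LIF library (17.2 CPM).

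Some other filament and linker genes differed between the same media, where 6.32% of all genes were called lower. Of 4 other keratins, Krt17 fell (1.85 against 15.1 CPM, limma adjusted p = 0.00445) and none rose. Of 14 linkers and desmosome genes 5 fell and none rose, among them Perp (16.9 against 112 CPM, limma adjusted p = 5.56e-06), Pkp2 (5.32 against 36.9 CPM) and Pkp1 (0 against 5.25 CPM). Of 13 other filament genes 1 fell, the lamin gene Lmna (19.7 against 101 CPM), and 2 rose, Nefh (23.5 against 10.2 CPM) and Bfsp2, a lens filament gene (1.49 log2). The medians of these lists were −0.80, −0.83 and −0.25, against −0.027 over all genes. Of the 11 simple epithelium genes 6 fell and none rose, and their sum in 2i-LIF was 179 to 369 CPM. Of the 7 pluripotency genes 5 were higher and 1 lower in 2i-LIF, with sums of 8959 to 14997 CPM against 5345 to 15090 CPM in the paired FBS-LIF libraries. Of 4 astrocyte genes tested 3 were lower in 2i-LIF, with sums over the list of 37.2 to 106 CPM against 116 to 449 CPM. Of 4 primitive endoderm genes tested 3 were lower, with sums of 4.30 to 15.9 CPM against 17.2 to 43.1 CPM, and of 4 neural progenitor genes 1 was lower. The neural progenitor sum was 7.33, 7.52, 48.9, 3.53 and 50.1 CPM in 2i-LIF (R9 OKMS days 14 and 20, R9 OKS day 20, R10 OKMS and OKS day 18) against 47.5, 9.85, 15.8, 14.8 and 62.7 CPM, so it was higher in 2i-LIF in the R9 OKS pair. Pdgfra of the primitive endoderm list, Slc1a2 of the astrocyte list and Olig2, Sox9 and Nkx2-2 of the neural progenitor list had no read in any late 2i-LIF library. The part of these lists in the filament difference was not tested.

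The late cells were then set against the 6 numbered R10 stem cell libraries, which the 2 comparisons share. In 2i-LIF at day 18, 1 of 5 genes was called, beside 12.2% of 15571 genes. Krt8 by its own reads was lower than in stem cells (14.2 ± 2.37 CPM, SD, n = 2, against 33.2 ± 10.4, n = 6; −1.13 log2, SE 0.28, limma adjusted p = 0.0178). That call was lost without either day 18 library (limma adjusted p = 0.0684 without OKMS and 0.117 without OKS) and with edgeR (adjusted p = 0.102) and DESeq2 (adjusted p = 0.105), and without R1-Clone3 replicate 2 its size was −0.99. It was also lost when the reads of the pseudogene Krt8-ps, a copy that can share reads with Krt8, were added to Krt8 (−0.51 log2, limma adjusted p = 0.197). Krt8-ps had 3 and 8 reads in the 2 day 18 libraries (5.29 and 12.5 CPM) and 0.328 to 2.71 CPM in the 6 stem cell libraries. Vim was at 146 ± 39.2 CPM (SD, n = 2) against 268 ± 80.8 (n = 6) and did not reach the size for a call (−0.84, SE 0.27, limma adjusted p = 0.0494). Krt7, Krt18 and Krt19 differed by −0.73, 0.52 and 0.20, with limma adjusted p of 0.173, 0.383 and 0.825. Krt7 and Krt19 had 1 read each in both day 18 libraries. These held 566599 (OKMS) and 638701 reads (OKS), against 2226725 to 4236442 in the 6 stem cell libraries. With so few reads, the tests of Krt7 and Krt19 cannot decide whether their levels differ. Of the related genes, 1 of 4 other keratins (Krt13) was lower, 2 of 13 other filament genes were higher and 2 lower (Nefm and Nefl), and 2 of 12 linkers were lower, with none higher. Of the marker lists, none of 3 neural progenitor genes tested was called, 1 of 4 astrocyte and 1 of 7 pluripotency genes were lower, and 1 of 11 simple epithelium genes was higher and 1 lower. The neural progenitor sum was 3.53 CPM in OKMS and 50.1 CPM in OKS against 1.16 to 4.27 CPM in the 6 stem cell libraries, and the astrocyte sum 106 and 62.6 CPM against 53.8 to 74.2 CPM. The part of these lists in the filament values was not tested.

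In FBS-LIF with doxycycline at day 18, 4 of 5 were called higher than in stem cells, beside 11.1% of genes called higher. Krt18 was higher by 3.90 log2 (SE 0.40, limma adjusted p = 8.23e-05; 165 ± 52.1 CPM, SD, n = 2, against 10.7 ± 4.77, n = 6). Krt19 was higher by 2.80 (SE 0.55), Krt8 by 1.15 (SE 0.31) and Vim by 1.09 (SE 0.34), with limma adjusted p of 0.00357, 0.0165 and 0.0314. Krt7 differed by 1.16 (SE 0.42, limma adjusted p = 0.0579). Without the OKS day 18 library Krt8 and Vim lost their calls (limma adjusted p = 0.175 and 0.360), and without the OKMS one Krt19 did (limma adjusted p = 0.0697). Vim also lost its call without R1-Clone3 replicate 1 (limma adjusted p = 0.0557), without R1-Clone3 replicate 2 (0.96 log2) and without R1 replicate 1 (limma adjusted p = 0.0502). Among the 5, Krt18 had the largest log2 difference from stem cells here, at 3.90 against 1.15 for its partner Krt8. Krt17 was the 1 of 4 other keratins that was higher (8.09 against 1.15 CPM). Of 13 other filament genes 3 were higher and 4 lower, with Prph at 1.84 and Nefm at −2.96 log2, and of 14 linkers 4 were higher, Perp among them (81.7 against 21.0 CPM), and 1 lower (Dsg2, −1.88 log2). Marker lists differed here too. Of 11 simple epithelium genes 5 were higher and 1 lower (median 0.80), with sums of 1045 CPM in OKMS and 750.4 CPM in OKS against 347 to 399.7 CPM. Of 5 neural progenitor genes tested 4 were higher than in stem cells (median 1.92), and the list summed to 14.8 CPM in OKMS and 62.7 CPM in OKS at day 18. Astrocyte genes were higher in 4 of 5 (median 2.31), with sums of 309 and 350 CPM against 53.8 to 74.2 CPM, and primitive endoderm genes in 3 of 4 (median 1.67), with 37.1 and 33.3 CPM. Of 7 pluripotency genes 1 was higher and 5 lower (median −1.91), with sums of 15090 CPM in OKMS and 5345 CPM in OKS. The 1 mesothelium gene tested was higher (1.74 log2), as was 1 of 4 fibroblast genes (median 0.84). Of 5 trophectoderm genes 1 was higher and 1 lower. Olig2 and Nkx2-2 of the neural progenitor list, Slc1a2 of the astrocyte list and Pdgfra of the primitive endoderm list had no read in either day 18 library. The part of these lists in the filament differences was not tested.

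**Figure D5:**
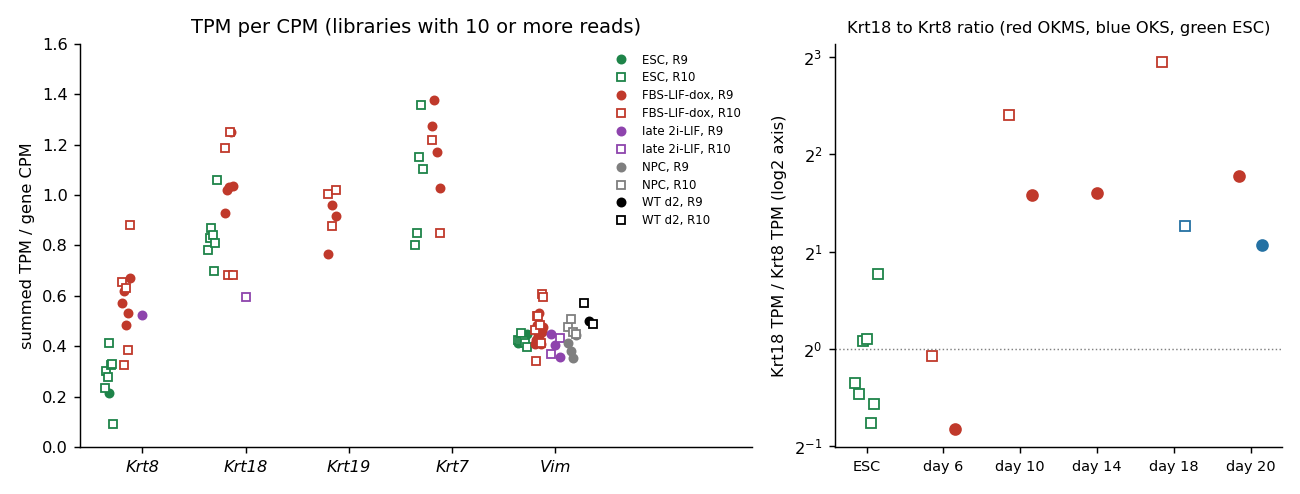
Left, summed transcript TPM divided by gene CPM for libraries with at least 10 reads of the gene; right, the ratio of Krt18 to Krt8 summed TPM on a log2 axis, with 1 point per library. Krt8 in R10 stem cells lies lowest on the left (0.0909 to 0.411), and the ratio on the right is 0.590 to 1.70 in R10 stem cells and reaches 7.71 at day 18.

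Levels of different genes were compared in the scaled transcript level TPM, which the deposited transcript table gives for assembled transcripts kept after filtering. Vim was the highest of the 5 in 41 of 45 libraries. In the other 4 Krt18 was above it: R10 OKMS day 10 (776 against 294 TPM), R10 OKMS day 18 (138 against 125), R9 OKMS day 20 (100.3 against 98.0) and R9 OKS day 20 (362 against 209), all in FBS-LIF with doxycycline. The ratio of Krt18 to Krt8 in TPM differed by day. It was 0.567 in R9 and 0.955 in R10 OKMS at day 6, 2.99 and 5.29 at day 10, and 3.03 at day 14. At day 18 it was 7.71 in OKMS and 2.40 in OKS, and at day 20 it was 3.43 in OKMS and 2.10 in OKS. In the 7 R10 stem cell libraries it was 0.590 to 1.70, with a median of 0.785. In each library given here from day 10 on in FBS-LIF with doxycycline, the type I chain Krt18 was the higher. R9 OKS at days 10 and 14 had 1 and 6 reads of Krt8 and 1 and 4 of Krt18, too few for a ratio.

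A caution attaches to Krt8. Its TPM per CPM was 0.0909 to 0.411 (median 0.300) in R10 stem cells, 0.326 to 0.881 in R10 and 0.485 to 0.671 in R9 FBS-LIF libraries. The R10 day 18 serum libraries, at 0.326 (OKMS) and 0.385 (OKS), lay within the stem cell range. The other R10 serum libraries were at 0.632 to 0.881. TPM thus puts Krt8 lower, relative to its reads, in stem cells and in day 18 serum than in the other serum libraries. In the day 18 OKMS serum library, with a Krt18 to Krt8 TPM ratio of 7.71, Krt18 was at 202 CPM and Krt8 at 54.9 CPM. For Krt18 the TPM per CPM was 0.698 to 1.06 in R10 stem cells, and 0.682 to 1.25 in R10 and 0.928 to 1.25 in R9 FBS-LIF libraries. By reads Krt8 was above Krt18 in 7 of 7 R10 stem cell libraries. Krt8-ps, the pseudogene described above, had 0 reads in every NPC and WT day 2 library, up to 17 reads (14.4 CPM) in R10 FBS-LIF libraries and up to 7 reads (2.71 CPM) in R10 stem cells. In R10 OKS at day 18 in 2i-LIF it had 8 reads, as many as Krt8 itself (12.5 CPM each), so the Krt8 level there is uncertain.

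Over all libraries, most TPM of each of these 4 keratins was of 1 annotated form. The leading Krt18 transcript (ENSMUST00000023803, 7 exons, 1384 bases, a predicted protein of 423 amino acids) made up 97.3% of Krt18 TPM. The annotated forms made up 90.1% for Krt8 (ENSMUST00000023952, 9 exons, 1923 bases, 490 amino acids) and 88.4% for Krt19 (ENSMUST00000007317, 6 exons, 1560 bases, 403 amino acids). Krt7 had the lowest such share of the 4, at 55.9%. Its annotated transcript (ENSMUST00000068904, 9 exons, 1565 bases, 457 amino acids) held 52.7 to 73.8% of Krt7 TPM in 4 R9 and 80.1 to 83.9% in 2 R10 FBS-LIF libraries with at least 10 reads. In 5 R10 stem cell libraries it held 0 to 28.4%. There a transcript with a new splice site (8 exons, 1048 bases), which starts at base 101415122 of chromosome 15 rather than 101412424, held 21.2 to 74.9%. These shares rest on few reads and were not tested.

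Vim was split over many more forms. The authors' filter kept 378 of its 1228 assembled transcripts, against 3 of 17 for Krt7, 7 of 63 for Krt8, 4 of 54 for Krt18 and 3 of 29 for Krt19. Vim also had far more reads, 42168 in R9 and 69230 in R10. Of the 4 keratins, Krt18 had the most, 1054 and 1311. The part of read number in these transcript counts was not tested. Of the Vim forms 339 had new splice sites and together held 39.4% of its TPM. The leading form, a splice match to ENSMUST00000028062 (9 exons, 2338 bases, 466 amino acids), held 24.4 to 51.5% of Vim TPM in R9 and 44.8 to 62.7% in R10 libraries. Another 2 forms, of 1866 and 1790 bases, match the splice sites of the same annotated transcript and are not in these shares. A form with a new splice site (7 exons, 1426 bases) held 15.7 to 29.9% in R9 and 2.60 to 10.6% in R10. The ranges of that form did not overlap between the 2 library kinds, so its share cannot be compared across them as a property of the cells.

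Genes with the most similar pattern were found by Pearson's r of log2(CPM + 1) over the 22 R9 libraries, among 15899 genes, with r over the 23 R10 libraries beside it. These values describe libraries that share lines, media and depth. For Krt8 the leading gene was Krt18 (r = 0.95 in R9 and 0.89 in R10), then Hook1, an adaptor of microtubule transport (0.94 and 0.74), and Tmem88 (0.94 and 0.75). For Krt18 they were Cldn6, a claudin of early embryonic epithelium (0.97 and 0.94), Tmem88 (0.95 and 0.86) and Krt8. For Krt19 they were Car4, a carbonic anhydrase (0.96 and 0.84), Esrp1, an epithelial splicing factor (0.95 and 0.91), and Krt8-ps (0.95 and 0.72). For Krt7 they were Sct (0.97 and 0.74), Il23a (0.95 and 0.71) and Syce3 (0.91 and 0.70). The R9 values for Krt7 rest on few reads: it had 83 over all R9 libraries, and Il23a was at or under 3.49 CPM in each. For Vim they were Ilk, a kinase of integrin adhesions (0.98 and 0.92), Nrep (0.98 and 0.92) and Sspn (0.98 and 0.90). Among the keratins r was 0.69 to 0.95 in R9 and 0.76 to 0.89 in R10. Between each keratin and Vim it was −0.28 to −0.65 in R9 and −0.31 to −0.74 in R10.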

How the data were processed

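Gene values were the authors' deposited CPM per gene (IsoQuant, per the file headers) and transcript values their deposited TPM. Per the submitters' processing notes, reads were aligned with minimap2 (2.24-r1122) to mm10. CPM values were whole multiples of 1 read in 100% of 711452 values above 0 (tolerance 0.02 reads), so reads were recovered. Of the gene table's columns, 13 matched no sample and were not used. Transcript class, exon number, length and reading frame came from the deposited annotation and classification, whose numbers are neither CPM nor TPM.

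Differences were tested in limma 3.58.1 (R 4.3.3; lmFit, eBayes with trend) on log2(CPM + 1), keeping genes that reached 1 CPM in a number of libraries no lower than the size of the smaller group (2 for the time course), with Benjamini-Hochberg adjustment over all genes tested, two-sided. Calls needed an adjusted p under 0.05 and a log2 difference of at least 1. The WT medium, factor and day 18 comparisons used R10, the line and day comparisons R9 with the line or the day as a term, and the media comparison 5 pairs as blocks. edgeR 4.0.16 (quasi-likelihood) and DESeq2 1.42.0 on the recovered reads, leaving out each library, quantile or median scaling, a pseudocount of 0.25, and a 5 CPM minimum or none were alternatives. Scripts were tested on simulated data. Python 3.11.15, pandas 2.3.3 and matplotlib 3.10.9 were used for tables and figures.

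The members and lists were chosen with earlier results of these data known, so counts over a list are descriptions. Besides the members, the text names the 3 genes most like each member and, of the related lists, called genes among the 4 with the largest difference in a comparison. Sequence windows came from RefSeq.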

Additional observations from a re-analysis of the deposited data

Results flagged for a closer look

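In groups of 4, 5 or 7 libraries, 6 of 24 gene and group combinations had 1 library farther from the others than Dixon's 95% limit. The usual chance rate of about 1 in 20 does not hold for counts near 0. For 5 of these the library stood apart by 1 or 2 reads where all others had none, so passing the limit was fixed by the counts. The 5 were Krt8 and Krt18 in R9 WT progenitor replicate 2 (0.968 CPM, 1 read each), Krt19 in the R9 OKS progenitors (1.69 CPM, 1 read), Krt7 in R10 WT progenitor replicate 3 (0.287 CPM, 1 read) and Krt19 in R10 WT progenitor replicate 2 (0.635 CPM, 2 reads). The sixth was Krt19 in the 5 serum libraries paired with 2i-LIF, where R9 OKS day 20 stood at 179.6 CPM (250 reads) and the next library at 51.7 CPM. That group mixes lines, days and library kinds.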

How the results depend on the processing

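Counts of the 5 genes called under other settings were as follows. For stem cells against progenitors in R10, 5 became 3 with a minimum of 5 CPM and 3 with the unnumbered R1 stem cell library alone, a group of 1 with no spread of its own. The R9 to R10 interaction went from 0 to 1 (Krt8) with a minimum of 5 CPM, quantile scaling or median centring. The WT medium count of 1 became 0 with no filter, median centring, edgeR or the R9 libraries. The time course count of 1 became 2 with a pseudocount of 0.25 or a minimum of 5 CPM, 3 with median centring or DESeq2, 5 with edgeR and 4 in the R10 days. Day 20 went from 3 to 5 with edgeR. OKMS against OKS went from 3 to 0 in R10, 1 in days 10 to 20 and 0 without the day block. The media count of 5 became 2 in the R10 pairs, the day 18 2i-LIF count of 1 became 0 with edgeR, DESeq2 or Krt8-ps reads added to Krt8 (a setting chosen after seeing the data, which changed no other count of the 5). R9 has no day 18 library, so its nearest comparisons used other days and 2 stem cell libraries: 2i-LIF at days 14 and 20 gave 0, and serum at day 20 gave 1 against 4 in R10 at day 18. Leaving out 1 library or pair gave 4 to 5 (stem cells, R10), 4 (R9), 0 to 1 (interaction), 0 (WT medium), 0 to 2 (time course), 0 to 4 (day 20), 1 to 5 (late against early), 1 to 3 (OKMS against OKS), 4 to 5 (media), 0 to 1 (2i-LIF day 18) and 3 to 4 (serum day 18). A group left with 1 library is assumed to vary like the others in the fit. The cause of these shifts was not tested.

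Directions turned for 19 values, none of them called. Krt19 in R9 stem cells was −0.36 without R1 and 1.16 without O4G. In the R9 to R10 interaction Krt18 was 0.15 with quantile scaling and 0.32 without the R10 OKS progenitors (leave-outs −0.40 to 0.32), Krt7 was 0.33 with DESeq2 and Krt19 was −0.14 without R9 O4G (leave-outs −0.14 to 1.38). Vim at day 2 was 0.0064 with quantile scaling, 0.075 without WT replicate 3 and 0.28 without OKMS (leave-outs −0.32 to 0.28). For the interaction of medium and line, Krt18 was −0.016 with median centring, −0.11 with edgeR, −0.16 with DESeq2, −1.41 without R9 OKS and −0.0039 without R10 OKMS (leave-outs up to 1.72), Krt19 was −1.50 without R9 OKS (up to 3.86), and Vim was −0.11 without R9 OKMS day 20 and −0.045 without R10 OKS (up to 0.67). For 2i-LIF against stem cells, R9 at days 14 and 20 gave −0.18 for Krt18 and −0.37 for Krt19, where R10 at day 18 gave 0.52 and 0.20, and Krt19 at day 18 was −0.047 without R1-Clone3 replicate 2 (leave-outs up to 0.42).

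WT libraries of both media share the numbers 2 and 3, and their deviations correlated (r = 0.47 over 14688 genes), which 2 pairs cannot establish as a pairing. With the replicate block, Vim stayed called (1.14 log2, limma adjusted p = 7.82e-04) and 5605 genes were called against 3940. Over all genes, counts that moved by more than 1.5 times under other settings were 2078 to 4573 with edgeR in the time course, 1896 to 621 with edgeR, 677 with DESeq2 and 1151 with a minimum of 5 CPM for 2i-LIF at day 18, and 3824 to 2372 with DESeq2 for serum at day 18. The R9 comparisons of other days called 110 (2i-LIF, days 14 and 20) and 393 genes (serum, day 20). The interaction of chemistry went from 666 to 88 with edgeR and 278 with DESeq2. Factors at day 2 went from 114 to 29 with quantile scaling, 74 with a pseudocount of 0.25, 181 with a minimum of 5 CPM, 399 with median centring, 334 with edgeR, 464 with DESeq2, 232 with both kinds and 0 in R9. OKMS against OKS went from 2567 to 126 in days 10 to 20, 2 without the day block and 0 in R10. The media count went from 1832 to 188 in R10 and 1166 in R9 pairs, WT medium from 3940 to 1562 in R9, the medium and line interaction from 1 to between 0 and 60, and the uninduced lines from 0 to 2 with edgeR, 9 with DESeq2 and 212 in R10. Leaving out 1 library, day or pair moved the counts over all genes to 0 to 1141 (WT medium, 0 without day 2 replicate 2 or either progenitor library), 866 to 3366 (day 20, from 3216, lowest without the OKMS progenitors), 1090 to 2997 (late against early, from 2846, lowest without OKMS day 14), 971 to 2061 (time course, lowest without OKS day 20), 131 to 1696 (chemistry interaction), 0 to 115 (factors at day 2), 1686 to 3236 (OKMS against OKS, lowest without day 6), 1210 to 1908 (media, lowest without R9 OKS day 20), 0 to 2 (medium and line interaction) and 0 to 37 (uninduced lines). The share of higher calls moved from 37.1 to 47.8% with median centring in the chemistry interaction, and from 45.9 to 72.4% with DESeq2 and 60.2% with edgeR for 2i-LIF at day 18.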
